A study of Homo sapiens with 12 samples.

Results

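The insulin-like growth factor binding proteins IGFBP1 to IGFBP7, with the ligand IGF2, were followed in TPC1, BCPAP and K1, 3 cell lines from papillary thyroid carcinomas, with and without Y15. The members were taken by name, as all probes annotated to these 8 genes out of 20044 gene symbols on the array. They had 12 probes, of which 8, from 6 genes, exceeded background on the 2 arrays of some group and were tested. IGFBP1 and IGF2 had none that did. Y15 is a small molecule that inhibits focal adhesion kinase (FAK, encoded by PTK2), which relays signals from integrins at sites of attachment to the matrix. The 6 groups were untreated TPC1, TPC1 with Y15, untreated BCPAP, BCPAP with Y15, untreated K1 and K1 with Y15, each with 2 arrays, and treatment was 10 µM Y15 for 24 h. The control cells are labelled as having no treatment, and a vehicle is not named for them. Each line is a single established culture, and K1 was grown in another medium than TPC1 and BCPAP, so for K1 the line and the medium cannot be told apart. Whether the 2 samples of a group came from separate plates is not stated for these lines. The p-values therefore rest on the spread between samples that may be technical replicates.

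IGFBPs are secreted proteins that bind IGF1 and IGF2 in the fluid around cells. By holding the ligands away from the IGF1 receptor they can restrain growth signals, and by protecting the ligands and releasing them when cut by proteases they can also prolong those signals. IGFBP7 belongs to the same family by its N-terminal domain but binds IGFs only weakly. In thyroid follicular cells IGF signalling acts together with thyrotropin on growth.

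Between 16004 and 20376 probes an array had a detection p under 0.05, with the fewest on replicate 2 of untreated BCPAP, the dimmest array (mean signal 215.4). The replicates of K1 with Y15 correlated at 0.982 over the tested probes and those of the other groups at 0.993 or more, so K1 values are also given without each of these 2 arrays. Of all 21600 probes tested, 25.7% were called for Y15 in TPC1, 13.4% in BCPAP and 7.81% in K1, at an adjusted p under 0.05 from limma. Among those calls 48.4%, 55.0% and 42.3% were higher with Y15. With median centring in place of quantile normalization these shares were 8.28%, 99.6% and 5.79%, and the median change of all probes moved to -0.16, 0.18 and -0.08 on the log2 scale. Of 10 thyroid markers on the array 4 were tested. PAX8, FOXE1 and HHEX were above background on all 12 arrays and NKX2-1 on the 4 BCPAP arrays, while TG, SLC5A5, SLC26A4 and DIO2 were above background on none. Among 6 epithelial markers KRT8 and KRT18 were above background on all 12 arrays and CDH1 on none. PTK2 itself was not called in any line, with log2 changes of -0.10 for TPC1, -0.33 for BCPAP and 0.03 for K1.

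RefSeq promoters were matched for 5 of the 8 members. The 250 bases before the start of the 4 genes whose calls are described first below are shown because these genes fell in different lines, and so that their core elements can be compared. They are on GRCh38.p14, with IGFBP3 at chr7:45921273-45921522 (minus strand), IGFBP4 at chr17:40443200-40443449 (plus strand), IGFBP5 at chr2:216695550-216695799 (minus strand) and IGFBP6 at chr12:53097417-53097666 (plus strand), each read 5′ to 3′ towards the gene. Capitals mark matches, on either strand, to the TATA box TATAAA, to its variant CTATNTA, to the GC box GGGCGG, to the box CCAAT, to the AP-1 site TGANTCA, to the TEAD core CATTCC or to the E-box CACGTG.
IGFBP3: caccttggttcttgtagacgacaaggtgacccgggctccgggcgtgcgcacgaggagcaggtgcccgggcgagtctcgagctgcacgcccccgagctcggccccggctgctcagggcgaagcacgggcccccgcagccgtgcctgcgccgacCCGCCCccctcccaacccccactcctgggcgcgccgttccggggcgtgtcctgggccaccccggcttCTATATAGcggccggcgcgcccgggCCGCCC
IGFBP4: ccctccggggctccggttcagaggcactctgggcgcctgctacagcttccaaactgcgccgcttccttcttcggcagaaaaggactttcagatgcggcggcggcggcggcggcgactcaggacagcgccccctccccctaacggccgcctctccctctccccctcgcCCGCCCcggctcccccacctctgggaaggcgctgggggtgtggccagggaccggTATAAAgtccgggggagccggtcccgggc
IGFBP5: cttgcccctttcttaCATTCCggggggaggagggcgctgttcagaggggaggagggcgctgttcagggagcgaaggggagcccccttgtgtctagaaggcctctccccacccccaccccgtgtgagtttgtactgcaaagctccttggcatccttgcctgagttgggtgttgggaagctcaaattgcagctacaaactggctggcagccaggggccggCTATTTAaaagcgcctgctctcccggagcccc
IGFBP6: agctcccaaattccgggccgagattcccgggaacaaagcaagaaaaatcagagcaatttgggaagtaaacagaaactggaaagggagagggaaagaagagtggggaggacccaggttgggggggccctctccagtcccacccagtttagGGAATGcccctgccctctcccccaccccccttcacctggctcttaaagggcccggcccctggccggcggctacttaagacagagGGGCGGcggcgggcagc
IGFBP4 had TATAAA at position -29 counted back from the start, and IGFBP3 and IGFBP5 had CTATNTA at -31 and -32, whereas IGFBP6 had neither. On IGFBP3 the CTATNTA matches on the 2 strands overlap. TATAAA was found in 10.7% and CTATNTA in 5.5% of 35116 promoter windows of the same length. The GC box GGGCGG was in IGFBP3, IGFBP4 and IGFBP6, and in 42.6% of all windows. The TEAD core was in IGFBP5 at -235 and, on the minus strand, in IGFBP6 at -101, and in 11.9% of all windows. The CCAAT box, AP-1 site and E-box, found in 32%, 6.57% and 6.34% of windows, were in none of the 4. The motifs were chosen with the sequences in view. IGFBP1 and IGFBP3 are next to each other on chromosome 7, and IGFBP2 and IGFBP5 on chromosome 2, with 0 annotated genes between them in RefSeq.

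IGFBP1, a liver-derived binding protein, was above background on 0 of the 12 arrays (log2 signal 6.66 to 6.84). The 3 probes of IGF2 were above background on 2, 0 and 0 arrays, and the brightest of them gave 6.70 to 7.01. Both probes annotated to INS-IGF2, the read-through of the insulin and IGF2 genes, were above background on 0 arrays. So neither the ligand nor IGFBP1 was measured above background on both arrays of any group, and no fold is given.

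IGFBP2, a binding protein common in carcinomas, stayed at the edge of background. Its log2 signal was 6.82 and 6.84 on the untreated TPC1 arrays, 6.98 and 6.93 with Y15, 6.71 and 6.95 on the untreated BCPAP arrays, 6.77 and 6.79 with Y15, 6.82 and 6.78 on the untreated K1 arrays and 6.91 and 6.95 with Y15. It was above background on both Y15 arrays of TPC1 and of K1 and on none of the other 8 arrays. Set against the dimmest probe called above background, the mean of IGFBP2 with Y15 was 1.08-fold higher in TPC1 and 1.05-fold higher in K1. Neither change was called (adjusted p = 0.309 and 0.415 from limma). The 95% interval of the log2 change ran from -0.05 to 0.30 in both lines, so no smallest rise is shown. These folds set the mean of the brighter group against the lowest log2 signal among probes above background on the other group's arrays.

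**Figure D1:**
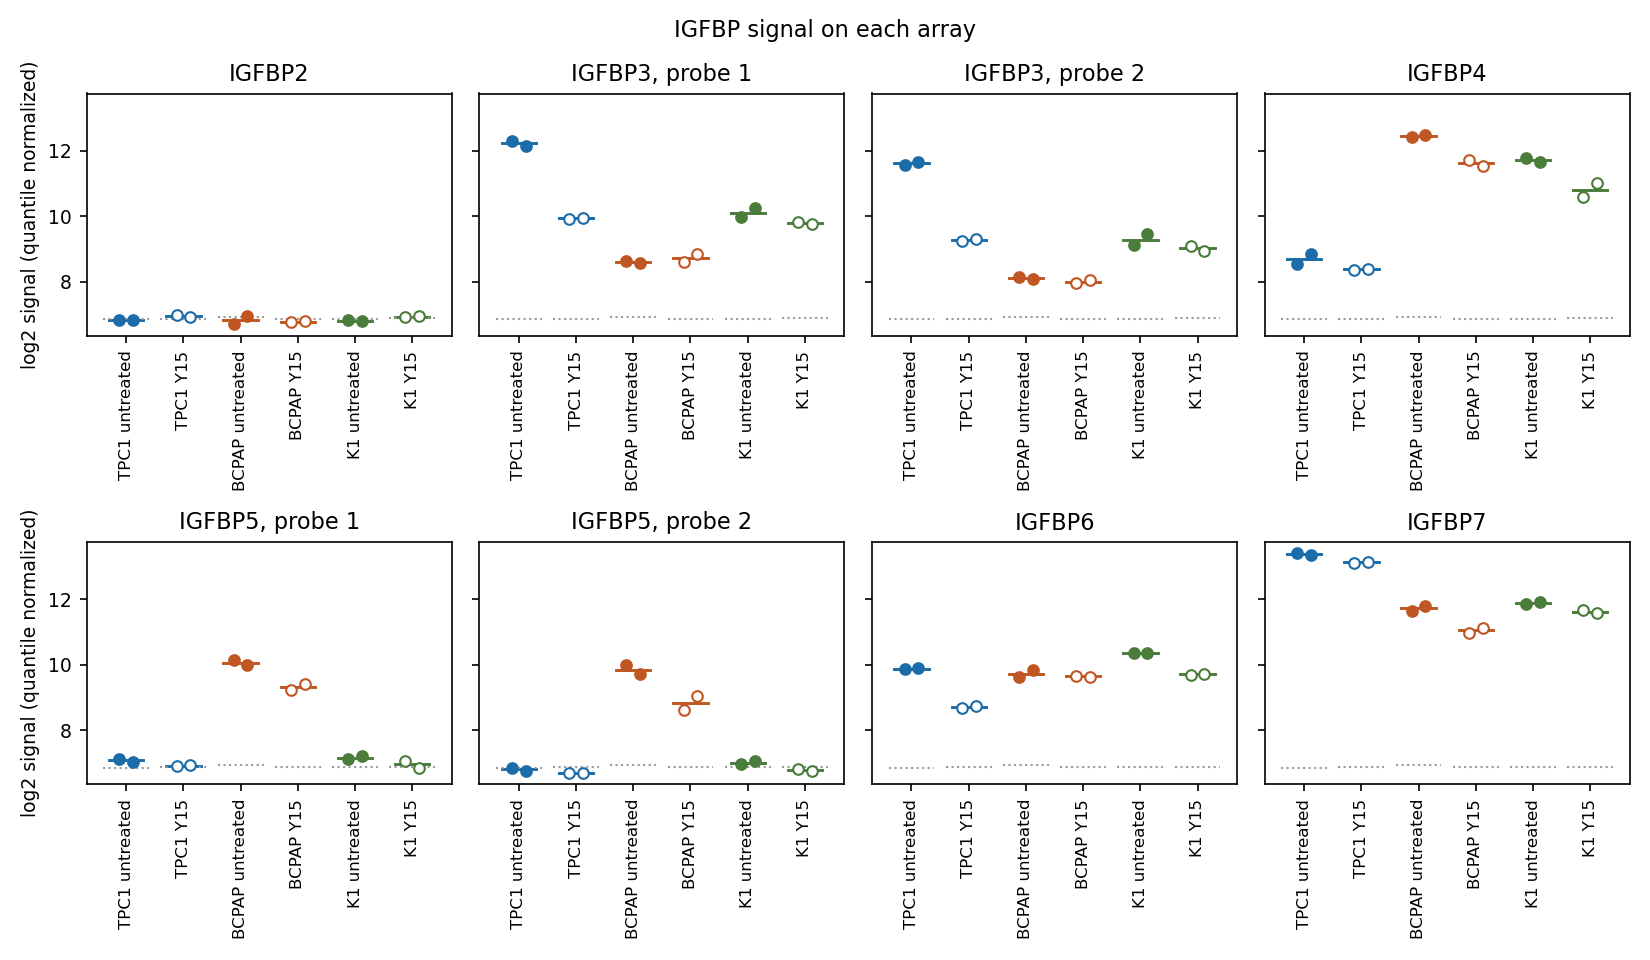
Quantile-normalized log2 signal (y axis) of the 8 tested IGFBP probes in the 6 groups (x axis). Each point is 1 array, filled for untreated and open for Y15, the bar is the group mean, and the dotted line is the lowest signal of a probe called above background. IGFBP3 falls from 12.23 to 9.94 in TPC1, while IGFBP5 is well above the dotted line in BCPAP only.

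In TPC1 cells Y15 lowered IGFBP3, IGFBP6 and, by little, IGFBP7. In BCPAP cells IGFBP4, IGFBP5 and IGFBP7 were lower, and in K1 cells IGFBP4 and IGFBP6 were. No member was called higher in any line, nor were any at an unadjusted p under 0.05 (0 probes in each line). Of the 8 tested probes 4 were called lower in TPC1 (13.2% of all tested probes were), 4 in BCPAP (6.05% of all) and 2 in K1 (4.5% of all). The median log2 change of the 8 probes was -0.28 for TPC1, -0.39 for BCPAP and -0.27 for K1, beside medians near 0 for all probes. Both Y15 arrays lay below both untreated arrays of the line for 7 of the 8 probes in TPC1, for 5 in BCPAP and for 7 in K1, against 34.9%, 25% and 24.1% of all tested probes. With median centring 3 probes were called in TPC1 and 0 in BCPAP and K1, where 2 and 5 had an unadjusted p under 0.05. Those in K1 were falls, but the 2 in BCPAP were rises. They were IGFBP6 (log2 change 0.51, adjusted p = 0.0748 from limma) and the brighter IGFBP3 probe (0.61, adjusted p = 0.0991).

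IGFBP3, the main carrier of IGFs in serum, fell in TPC1 by more than any other tested member did in any line. Its brighter probe (ILMN_1746085) gave a log2 signal of 12.29 and 12.17 on the untreated TPC1 arrays and 9.92 and 9.96 with Y15. The other probe (ILMN_2396875) gave 11.58 and 11.66 untreated and 9.25 and 9.30 with Y15. On both probes the treated arrays lay far below the untreated ones, and the gap was many times the spread between replicates. The log2 changes were -2.29 (SE 0.10, 4.89-fold lower, n = 2 a group, adjusted p = 1.12e-07 from limma) and -2.34 (SE 0.10, 5.08-fold lower, adjusted p = 9.98e-08). These were the 10th and 9th lowest of the 21600 changes in TPC1. IGFBP3 is one of the genes the study itself singled out on these arrays, so its call is no separate evidence of its direction.

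In the other lines IGFBP3 was not called. The brighter probe gave 8.64 and 8.56 on the untreated BCPAP arrays and 8.59 and 8.84 with Y15, and these ranges overlapped (log2 change 0.12, SE 0.10, adjusted p = 0.503). In K1 it gave 9.98 and 10.25 untreated and 9.83 and 9.77 with Y15, with no overlap (log2 change -0.31, SE 0.10, adjusted p = 0.0924). The other probe changed by -0.10 in BCPAP and -0.27 in K1, neither called (adjusted p = 0.576 and 0.145), so the 2 probes differed in sign in BCPAP. Untreated BCPAP cells were 1.68 and 1.18 above the dimmest level called above background on the 2 probes. That was less than the fall measured in TPC1, so a fall of that size could not have been read in full in BCPAP. With Y15 the BCPAP cells were 1.85 and 1.13 above that level, so IGFBP3 did not fall to it. In untreated K1 cells the distance was 3.25 and 2.43, more than the fall measured in TPC1.

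IGFBP6, which prefers IGF2 to IGF1 as its ligand, was lower with Y15 in TPC1 and K1. In TPC1 it gave 9.87 and 9.89 untreated and 8.69 and 8.74 with Y15. In K1 it gave 10.36 and 10.36 untreated and 9.69 and 9.72 with Y15, and in BCPAP 9.61 and 9.84 untreated and 9.66 and 9.64 with Y15. The treated arrays were lower without overlap in TPC1 and K1 and lay within the untreated range in BCPAP. The log2 change was -1.16 in TPC1 (SE 0.08, 2.24-fold lower, adjusted p = 1.75e-06 from limma), -0.65 in K1 (SE 0.08, 1.57-fold lower, adjusted p = 0.000837) and -0.08 in BCPAP (SE 0.08, adjusted p = 0.561). Without either Y15 array of K1 the change there was -0.64 or -0.67. The K1 call was lost with median centring, where the change was larger (-0.89, adjusted p = 0.0506), and when only the 4 K1 arrays were fitted, where it was the same (adjusted p = 0.104), and in BCPAP median centring turned the change to 0.51 without a call.

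IGFBP4, an inhibitor of IGF action that proteases inactivate, was lower with Y15 in BCPAP and K1. In BCPAP it gave 12.42 and 12.49 untreated and 11.73 and 11.54 with Y15. In K1 it gave 11.80 and 11.66 untreated and 10.59 and 11.01 with Y15, and in TPC1 8.53 and 8.84 untreated and 8.37 and 8.38 with Y15. The groups did not overlap in any line, and the treated K1 arrays were the farthest apart from each other. The log2 change was -0.82 in BCPAP (SE 0.14, 1.77-fold lower, adjusted p = 0.00283 from limma), -0.93 in K1 (SE 0.14, 1.91-fold lower, adjusted p = 0.00253) and -0.31 in TPC1 (SE 0.14, adjusted p = 0.121). Leaving out replicate 1 of K1 with Y15 gave -0.72 and leaving out replicate 2 gave -1.14. These fits lose the spread between the 2 treated K1 arrays, so a call in them is no check of the main one. With median centring neither call remained, with a smaller change of -0.30 in BCPAP (adjusted p = 0.46) and a larger one of -1.18 in K1 (adjusted p = 0.0735). The K1 call was also lost with only the 4 K1 arrays, at the same change (adjusted p = 0.148), and TPC1 was called with only its own 4 arrays (adjusted p = 0.0141) and without either Y15 array of K1 (0.0238 and 0.0242).

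IGFBP5, a binding protein that also attaches to extracellular matrix, was measured well above background in BCPAP alone and fell there. Its brighter probe (ILMN_1750324) gave 10.14 and 9.99 on the untreated BCPAP arrays and 9.22 and 9.40 with Y15. The other probe (ILMN_2132982) gave 9.99 and 9.71 untreated and 8.61 and 9.06 with Y15. Neither probe overlapped between the groups. The log2 changes were -0.76 (SE 0.09, 1.69-fold lower, adjusted p = 0.000533 from limma) and -1.02 (SE 0.13, 2.02-fold lower, adjusted p = 0.000697). Median centring left -0.20 and -0.48, neither called, which relative to the median of all probes under that scaling were -0.38 and -0.66.

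In TPC1 and K1 IGFBP5 was too close to background for a fall of that size to be read. The brighter probe gave 7.12 and 7.03 on the untreated TPC1 arrays and 6.90 and 6.92 with Y15, and 7.12 and 7.20 untreated and 7.06 and 6.85 with Y15 in K1. The other probe ran from 6.68 to 6.85 in TPC1 and from 6.75 to 7.05 in K1. On the brighter probe the log2 changes were -0.17 in TPC1 and -0.21 in K1, not called (adjusted p = 0.235 and 0.225). The other probe was not above background on the Y15 arrays of either line. Its untreated mean was 0.95-fold the dimmest level called above background on those arrays in TPC1 and 1.10-fold in K1. Neither change was called (adjusted p = 0.607 and 0.351 from limma). The 95% interval of the log2 change was -0.40 to 0.18 in TPC1 and -0.52 to 0.06 in K1, so no smallest fall is shown.

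IGFBP7, a secreted protein with low affinity for IGFs that is known for growth arrest in several cancers, was lower in BCPAP and to a smaller extent in TPC1. In BCPAP it gave 11.66 and 11.80 untreated and 10.98 and 11.12 with Y15. In TPC1 it gave 13.42 and 13.35 untreated and 13.11 and 13.15 with Y15, and in K1 11.88 and 11.92 untreated and 11.67 and 11.59 with Y15. In all 3 lines the treated arrays lay below the untreated ones. The log2 change was -0.67 in BCPAP (SE 0.08, 1.59-fold lower, adjusted p = 0.000384 from limma), -0.26 in TPC1 (SE 0.08, 1.19-fold lower, adjusted p = 0.032) and -0.27 in K1 (SE 0.08, adjusted p = 0.0608), so TPC1 and K1 had nearly the same change on either side of the threshold. The TPC1 call was lost without any 1 of the 4 TPC1 arrays (adjusted p from 0.074 to 0.183), and both calls were lost with median centring, at a larger change of -0.39 in TPC1 (adjusted p = 0.165) and a smaller one of -0.13 in BCPAP (adjusted p = 0.665).

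**Figure D2:**
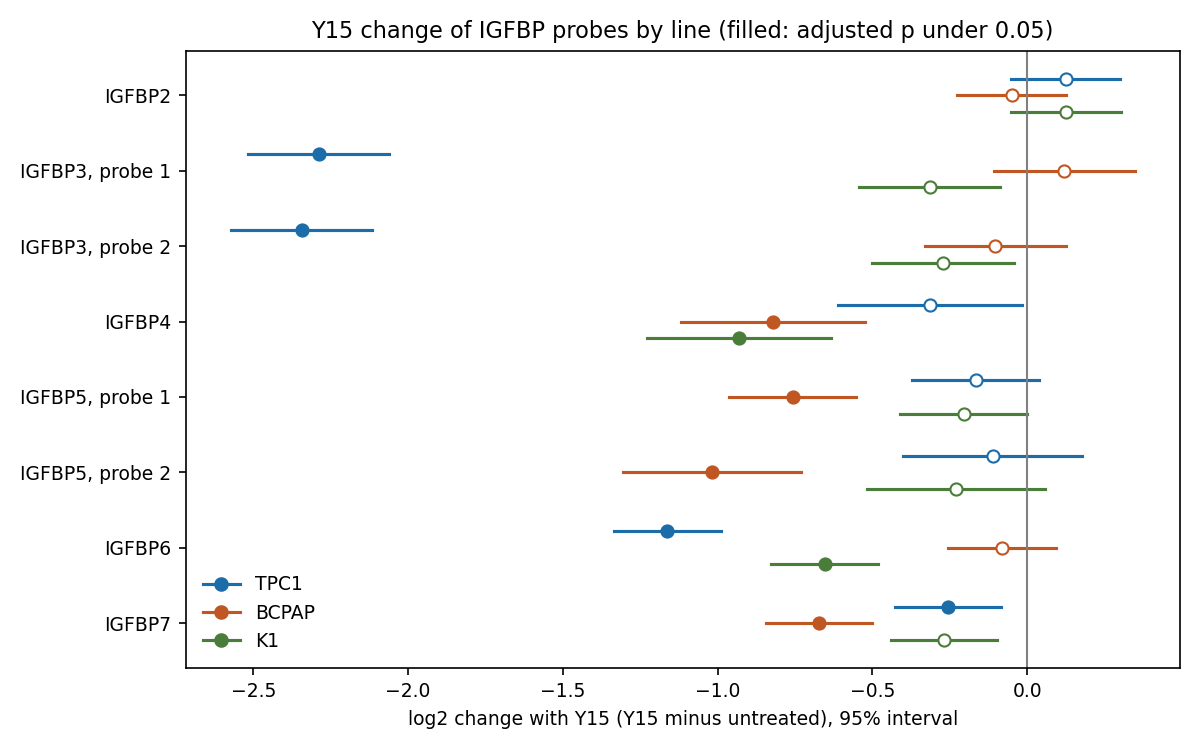
Log2 change with Y15 (x axis, Y15 minus untreated, with its 95% interval) of each tested IGFBP probe (y axis) in TPC1, BCPAP and K1. Filled points passed an adjusted p of 0.05. IGFBP3 and IGFBP6 fall farthest in TPC1, at -2.29 and -1.16, and IGFBP5 is filled in BCPAP only, at -0.76 and -1.02.

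Whether Y15 acted differently in the 3 lines was tested with an F test in the same fit. It called 6 of the 8 probes, from 4 genes, against 14.8% of all probes. IGFBP3 differed most (adjusted p = 5.58e-06 and 6.44e-06 on its 2 probes), then IGFBP6 (0.000308), IGFBP5 (0.017 and 0.0126) and IGFBP7 (0.0344). IGFBP4 (adjusted p = 0.0864) and IGFBP2 (0.45) were not called. The 3 pairs of lines were then compared, with the choice to do so made after the values were seen and p-values adjusted over all probes in each pair. These pairs share arrays with each other.

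Between the changes of TPC1 and BCPAP 6 of the 8 probes were called (14.3% of all probes), between those of TPC1 and K1 3 (6.17% of all) and between those of BCPAP and K1 3 (5.52% of all). The IGFBP3 change in TPC1 was below that in BCPAP (log2 difference -2.41, SE 0.15, adjusted p = 4.81e-06 from limma, brighter probe) and below that in K1 (-1.97, SE 0.15, adjusted p = 1.77e-05). A fall of the TPC1 size could not have been read in full in BCPAP, where IGFBP3 with Y15 stood 1.85 above the dimmest level called above background, and could have been in K1. BCPAP and K1 did not pass for IGFBP3 (difference 0.43, 95% interval 0.11 to 0.76, adjusted p = 0.116). IGFBP6 passed in all 3 pairs and ran from TPC1 through K1 to BCPAP, with differences of -0.51 between TPC1 and K1 (adjusted p = 0.0209) and 0.57 between BCPAP and K1 (adjusted p = 0.0152). The fitted IGFBP5 changes differed by 0.59 between TPC1 and BCPAP on the brighter probe (adjusted p = 0.0129) and by -0.55 between BCPAP and K1 (adjusted p = 0.0355). Untreated TPC1 and K1 were only 0.23 and 0.30 above the dimmest level called above background, less than the fall of BCPAP, so these tests do not show whether IGFBP5 responded differently there. For IGFBP7 the difference between TPC1 and BCPAP passed (0.42, adjusted p = 0.0283), and that between BCPAP and K1, of nearly the same size, missed the threshold (-0.41, 95% interval -0.65 to -0.16, adjusted p = 0.0571). For IGFBP4 no pair was called. The difference was 0.51 between TPC1 and BCPAP (95% interval 0.09 to 0.93, adjusted p = 0.105 from limma). It was 0.62 between TPC1 and K1 (95% interval 0.20 to 1.04, adjusted p = 0.0887) and 0.11 between BCPAP and K1 (95% interval -0.31 to 0.53). With array weights the F test called IGFBP4 (adjusted p = 0.0393). With median centring and with the neqc background correction 3 probes were called in the F test, and IGFBP5 and IGFBP7 were not among them.

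Before treatment the lines differed in the level of the same IGFBPs. IGFBP3 and IGFBP7 were highest in TPC1, IGFBP4 and IGFBP5 in BCPAP, and IGFBP6 in K1. Between untreated TPC1 and BCPAP 6 of 8 probes were called (46.5% of all probes), between TPC1 and K1 5 (31.5% of all) and between BCPAP and K1 6 (41.6% of all). IGFBP3 on its brighter probe was 12.23 ± 0.09 in TPC1, 10.11 ± 0.19 in K1 and 8.60 ± 0.05 in BCPAP (mean ± SD, n = 2), and each step passed the test. TPC1 was 12.4-fold above BCPAP (log2 difference 3.63, SE 0.10, adjusted p = 1.92e-10 from limma) and 4.33-fold above K1 (2.11, SE 0.10, adjusted p = 2.71e-08).

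IGFBP4 ran in the other order, with 12.46 ± 0.05 in BCPAP, 11.73 ± 0.10 in K1 and 8.69 ± 0.22 in TPC1. TPC1 was 13.6-fold below BCPAP (adjusted p = 1.32e-09 from limma) and 8.23-fold below K1 (adjusted p = 1.13e-08), and the step between BCPAP and K1 (0.73, SE 0.14, adjusted p = 0.00109) was lost with median centring (0.08, adjusted p = 0.834). IGFBP5 was 10.06 ± 0.11 in BCPAP on its brighter probe, against 7.16 ± 0.05 in K1 and 7.08 ± 0.07 in TPC1, which did not differ from each other beyond their spread (adjusted p = 0.581). BCPAP was 7.94-fold above TPC1 (adjusted p = 4e-10) and 7.50-fold above K1 (adjusted p = 7.64e-10). The other IGFBP5 probe gave the same order.

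IGFBP6 was 10.36 ± 0.00051 in K1, 9.88 ± 0.01 in TPC1 and 9.73 ± 0.16 in BCPAP. K1 was above both (adjusted p = 0.000636 and 5.8e-05 from limma), and TPC1 and BCPAP were not called different (0.15, SE 0.08, adjusted p = 0.14), but were without replicate 2 of untreated BCPAP (0.27, adjusted p = 0.0171) and with median centring (0.93, adjusted p = 0.00245), under which TPC1 and K1 were not (adjusted p = 0.0888). IGFBP7 was 13.39 ± 0.05 in TPC1, 11.90 ± 0.03 in K1 and 11.73 ± 0.10 in BCPAP. TPC1 was 3.16-fold above BCPAP (adjusted p = 1.27e-08) and 2.81-fold above K1 (adjusted p = 4.88e-08), while K1 and BCPAP did not pass (-0.17, SE 0.08, adjusted p = 0.103), except with median centring (-0.85, adjusted p = 0.00672).

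With Y15 the gap between TPC1 and K1 narrowed for IGFBP3, with the lines in the same order, and TPC1 became the lowest line for IGFBP6. The comparison of the treated groups was added after the values were seen. IGFBP3 with Y15 stood at 9.94 ± 0.02 in TPC1 and 9.80 ± 0.05 in K1, a difference of 0.14 (95% interval -0.09 to 0.37, adjusted p = 0.369 from limma), where the untreated lines had differed by 2.11. The other probe gave 0.26 (95% interval 0.03 to 0.49, adjusted p = 0.0853). IGFBP6 with Y15 was 8.72 ± 0.04 in TPC1, now lower than the 9.65 ± 0.01 of BCPAP (-0.93, SE 0.08, adjusted p = 2.41e-06) and the 9.70 ± 0.03 of K1 (-0.99, SE 0.08, adjusted p = 2.61e-06). Calls between the treated lines were made for 44.3% of all probes between TPC1 and BCPAP, 28.3% between TPC1 and K1 and 41.4% between BCPAP and K1. The calls covered 7, 3 and 6 of the 8 member probes.

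Of the ligands, IGF1 and INS were above background on 1 and 3 of the 12 arrays, and like IGF2 they were not tested. IGF1R, the receptor through which both IGFs signal, was above background on 2 arrays by its 1 probe, INSRR on 2 and IGFALS, the third partner of the serum complex of IGF and IGFBP3, on 0. IGF2R, which takes up IGF2 for breakdown, gave 10.86 and 10.83 on the untreated TPC1 arrays and 11.21 and 11.20 with Y15, 10.08 and 9.89 untreated and 9.76 and 10.14 with Y15 in BCPAP, and 10.29 and 10.50 untreated and 10.90 and 10.52 with Y15 in K1. The Y15 arrays were higher without overlap in TPC1 and K1, and no line was called (log2 changes 0.36, -0.03 and 0.32, adjusted p = 0.0884, 0.913 and 0.214 from limma). INSR, the insulin receptor, was above background on both arrays of untreated K1 alone and on 3 of 12 in all, and was not called (adjusted p from 0.061 to 0.698).

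Proteases that cut IGFBPs and the regulators of those proteases moved in both directions. Of 20 listed genes 16 were tested. TPC1 had 3 called higher and 6 lower, BCPAP had 2 and 6, and K1 had 3 and 2. Of all tested probes 25.7%, 13.4% and 7.81% were called in these lines in either direction. The median log2 changes of the list were -0.08, -0.03 and 0.13. HTRA1, a serine protease that degrades IGFBPs and has an IGFBP-type domain of its own, gave 10.92 and 10.92 on the untreated TPC1 arrays and 9.68 and 9.80 with Y15, and 11.09 and 11.19 untreated and 9.86 and 9.36 with Y15 in K1. It was lower without overlap in both lines, by log2 changes of -1.18 in TPC1 (SE 0.13, adjusted p = 6.38e-05 from limma) and -1.53 in K1 (SE 0.13, adjusted p = 0.000118). In BCPAP its change was -0.41 (adjusted p = 0.0625). ADAM9, a membrane metalloproteinase, fell in TPC1 by a log2 change of -1.14 (SE 0.09, adjusted p = 3.96e-06) and by less in the BCPAP arrays (-0.41, adjusted p = 0.0106) and those of K1 (-0.45, adjusted p = 0.0106). Under median centring TPC1 had 0 higher and 6 lower, with PLAU lost from those called lower and PAPPA added, BCPAP had 3 higher and 0 lower, and K1 had 0 and 1. At an unadjusted p under 0.05 these were 1 and 7, 4 and 0, and 3 and 3.

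The set around IGFBP4 was measured in all lines. STC1, a stanniocalcin that blocks cleavage of IGFBP4 by PAPPA, gave 9.30 and 9.30 on the untreated TPC1 arrays and 8.31 and 8.22 with Y15, a log2 change of -1.03 (SE 0.11, adjusted p = 3.62e-05 from limma), and fell in BCPAP by -0.59 (adjusted p = 0.00446), with 0.21 in K1 (adjusted p = 0.292). PAPPA, the protease that cuts IGFBP4 and IGFBP5, is named after its values were seen. It gave 8.32 and 8.34 untreated and 7.48 and 7.59 with Y15 in BCPAP, lower without overlap (log2 change -0.79, SE 0.11, adjusted p = 0.00127), and changed by -0.33 in TPC1 (adjusted p = 0.052) and 0.21 in K1 (adjusted p = 0.311). STC2, the other stanniocalcin, gave 8.98 and 9.05 untreated and 10.97 and 10.97 with Y15 in TPC1 (log2 change 1.96, SE 0.53, adjusted p = 0.0175). In K1 it gave 9.23 and 9.13 untreated and 11.004 and 8.55 with Y15, 1 array above and 1 below the untreated ones, and that gap enters the standard error of every line. MMP3, a stromelysin, gave 7.19 and 7.10 untreated and 11.19 and 8.65 with Y15 in K1 (log2 change 2.77, SE 0.54, adjusted p = 0.011), where both treated arrays were higher but far from each other. In BCPAP MMP3 gave 7.95 and 7.76 untreated and 9.53 and 9.51 with Y15. It was not called there (log2 change 1.67, SE 0.54, adjusted p = 0.0657), nor in TPC1 (0.17, adjusted p = 0.871). Median centring ended the calls of STC2 in TPC1 (adjusted p = 0.137), MMP3 in K1 (0.0735), and STC1 and PAPPA in BCPAP (0.892 and 0.184). It kept those of STC1 in TPC1 and of HTRA1 in TPC1 and K1, and called MMP3 higher in BCPAP (log2 change 2.07, adjusted p = 0.0485).

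**Figure D3:**
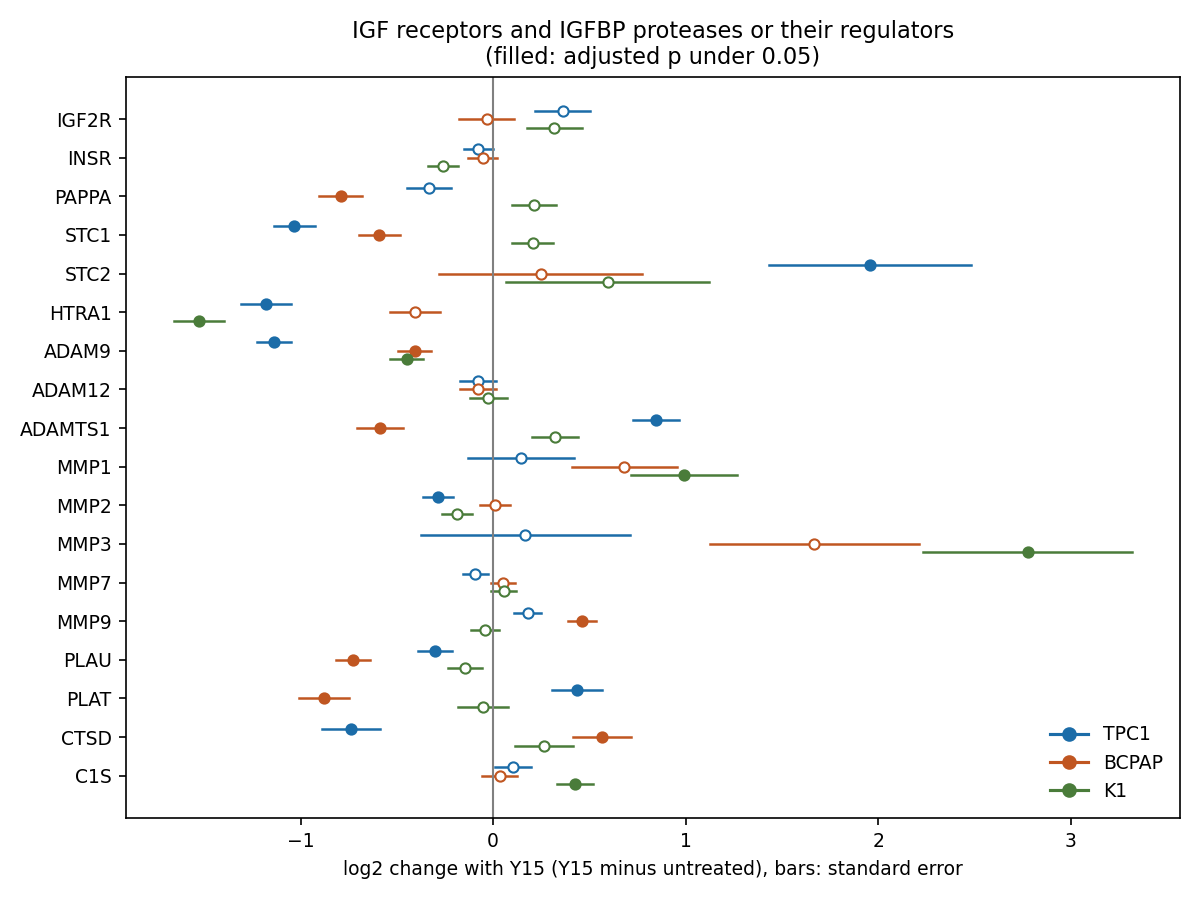
Log2 change with Y15 (x axis, Y15 minus untreated, bars are the standard error) of the tested IGF receptors and of the tested genes of the list of IGFBP proteases and their regulators (y axis) in the 3 lines. Filled points passed an adjusted p of 0.05. HTRA1 lies at -1.18 in TPC1 and -1.53 in K1, and the wide bars of STC2 and MMP3 (0.53 and 0.54) come with treated K1 arrays that lie far apart.

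The counts that follow stand beside 25.7% of all tested probes called in TPC1, 13.4% in BCPAP and 7.81% in K1, in either direction. Among 13 other genes with an IGFBP N-terminal domain 10 were tested. TPC1 had 3 called higher and 2 lower, BCPAP had 1 and 2, and K1 had 1 and 1. Under median centring these were 0 and 2, 1 and 0, and 0 and 1 (1 and 2, 2 and 0, and 1 and 3 at an unadjusted p under 0.05). ESM1, an endothelial cell proteoglycan, gave 7.96 and 7.79 on the untreated K1 arrays and 9.53 and 9.58 with Y15, higher without overlap (log2 change 1.68, SE 0.10, adjusted p = 1.27e-05 from limma). Its other probe changed by 0.53 (adjusted p = 0.0137), and with median centring the brighter probe was not called (adjusted p = 0.0554). In BCPAP the brighter ESM1 probe was also called higher (0.52, adjusted p = 0.00656), and the other was not (0.34, adjusted p = 0.0611). Median centring called both in BCPAP (1.12 and 0.72, adjusted p = 0.0422 and 0.0444). CCN2, a matricellular protein named after its values were seen, moved in opposite directions, up in TPC1 (log2 change 0.91, adjusted p = 0.00176) and down in BCPAP (-0.95, adjusted p = 0.00367), and neither was called with median centring (0.382 and 0.456). Of 19 tested genes of signalling downstream of the IGF1 receptor TPC1 had 2 called higher and 5 lower, BCPAP had 0 and 1 (2 and 3 at an unadjusted p under 0.05), and K1 had 1 and 1. Median centring turned the balance in BCPAP, with 2 higher and 0 lower (6 and 0 unadjusted), and gave 0 and 6 in TPC1 (1 and 9 unadjusted) and 0 in K1 (0 and 3 unadjusted). Both tested IGF2 mRNA binding proteins were called lower in BCPAP, and 0 in TPC1 and K1 (0 at an unadjusted p under 0.05). Neither BCPAP call held with median centring, where IGF2BP2 turned from -0.29 to 0.29 (adjusted p = 0.433) and IGF2BP3 went from -0.64 to -0.10 (adjusted p = 0.865). Of 11 tested cell surface partners of IGFBPs TPC1 had 1 higher and 5 lower, BCPAP had 1 and 2, and K1 had 0 (1 and 2 at an unadjusted p under 0.05). With median centring TPC1 had 0 and 3 (0 and 7 unadjusted), BCPAP 1 and 0 (2 and 0 unadjusted) and K1 0 (1 and 2 unadjusted).

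Some markers of other cell types were called too, beside 25.7% of all tested probes called in TPC1, 13.4% in BCPAP and 7.81% in K1. Of 9 fibroblast markers 6 were tested, and LUM and PDGFRB were lower in TPC1 (LUM by a log2 change of -1.07, adjusted p = 4.78e-06 from limma), COL1A1 in BCPAP and 0 in K1 (3 at an unadjusted p under 0.05). Their summed log2 signal was 64.03 to 64.12 in untreated TPC1 and 62.38 to 62.52 with Y15, 64.61 to 65.18 and 63.31 to 63.89 in BCPAP, and 63.79 to 63.87 and 62.61 to 63.42 in K1. None of COL3A1, PDGFRA and FAP passed the background filter. PDGFRB was near background in TPC1, with a mean log2 signal of 6.99 untreated and 6.60 with Y15, where it was above background on 0 arrays. The 5 endothelial markers gave 0 tested genes, with CDH5, TEK and VWF above background on 0 arrays. Of 5 leukocyte markers on the array PTPRC, CD3E and LYZ were above background on 0 arrays, CD68 was higher in TPC1 and BCPAP, and CD14 lower in K1 (log2 change -1.16, adjusted p = 0.000316). Their summed log2 signal was 35.02 to 35.38 in untreated TPC1 and 35.51 to 35.72 with Y15, 36.88 to 37.11 and 37.56 to 37.67 in BCPAP, and 38.53 to 38.58 and 37.64 to 37.82 in K1. KRT7 of the epithelial markers and PAX8 and FOXE1 of the thyroid markers were lower in TPC1, PAX8 and NKX2-1 in BCPAP, and PAX8 in K1. Under median centring the TPC1 calls of LUM, PDGFRB, KRT7, PAX8 and FOXE1 held and that of CD68 did not (adjusted p = 0.616). In BCPAP PAX8 and NKX2-1 turned to 0.19 and 0.14 (adjusted p = 0.615 and 0.656) and COL1A1 was lost (0.215), as was PAX8 in K1 (0.181). The part of these genes in the IGFBP changes was not tested. In bulk RNA, less RNA per cell and fewer cells that carry it cannot be told apart.

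The genes whose signal ran most like each member over the 12 arrays were found among 12377 other genes by Pearson's r, as a description over arrays that are 4 from each of 3 lines and so are not independent. For IGFBP3 they were COL18A1, a basement membrane collagen (r = 0.988), ZDHHC7 (0.984) and TRIM38 (0.984). For IGFBP4 they were COL5A1, a fibrillar collagen chain (0.993), THY1, a surface glycoprotein of fibroblasts (0.992), and CD70 (0.991). ABI3, MALL and FAM133A followed IGFBP5 (0.996 each), MYL9, a myosin light chain, LTBP3, a latent TGF-beta binding protein, and TECR followed IGFBP6 (0.966, 0.966 and 0.959), and GRHPR, APP and MYH9 followed IGFBP7 (0.985, 0.981 and 0.979). TMEM87B, TEX9 and MINDY3 were nearest to IGFBP2 (0.861, 0.83 and 0.813), whose values hardly left background.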

How the data were processed

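RNA of 12 samples of established papillary thyroid cancer cell lines was measured on Illumina bead arrays. The authors deposited, per GenomeStudio, signal intensities with a detection p-value for each probe, and quantile-normalized log2 values. The intensities were quantile normalized again here on the log2 scale (largest difference to the deposited log2 values 5e-09). Of 47323 rows 12 had no values. Platform annotation gave 1 symbol to 30113 probes, several to 8 and none to 17202. A probe was tested if its detection p was under 0.05 on both arrays of at least 1 group (21600 probes), in a limma 3.58.1 fit (R 4.3.3) of 6 group means over 12 arrays, with Benjamini-Hochberg adjustment over all probes and calls at an adjusted p under 0.05. Where a gene of a list had several probes, the brightest stood for it. The fit was tested on simulated data. Precision is limited by the few arrays, and quantile normalization forces 1 distribution of signal on all arrays.

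All 8 members with their probes, the IGF ligands and the IGF receptors are named, as are other list genes where called with a log2 change of at least 1 in a line, and the 3 genes most correlated with each member. The lists were IGF ligands, receptors, ternary complex, proteases and their regulators, other IGFBP-domain genes, downstream signalling, IGF2 mRNA binding proteins, cell surface partners, the targeted kinase, and markers of thyroid, epithelium, fibroblast, endothelium and leukocytes. Members and lists were chosen with earlier results of these data known. Alternatives were median centring, neqc, the deposited log2 values, no filter, 1 probe a gene, array weights, a replicate block, each line alone, each array left out, and the methods' threshold of an unadjusted p under 0.05 with a fold of 1.2. Promoter windows were searched with Python 3.11.15.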

Additional observations from a re-analysis of the deposited data

Results flagged for a closer look

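By the F test of limma the response to Y15 was not alike in the 3 lines for 6 of the 8 tested probes, against 14.8% of all probes. They were both probes of IGFBP3 (adjusted p = 5.58e-06 and 6.44e-06), IGFBP6 (0.000308), both probes of IGFBP5 (0.017 and 0.0126) and IGFBP7 (0.0344). IGFBP3 fell in TPC1 by a log2 change of -2.29 and changed by 0.12 in BCPAP and -0.31 in K1. IGFBP5 was at the edge of background in TPC1 and K1, where a fall like that in BCPAP could not have been read. In BCPAP an IGFBP3 fall of the TPC1 size could not have been read in full. Its brighter probe stood 1.68 above the dimmest level called above background in untreated BCPAP and 1.85 with Y15. A fall to that level could have been read there and was not seen. The IGFBP5 difference was lost on the brighter probe without TPC1 Y15 replicate 2 (adjusted p = 0.0529), untreated BCPAP replicate 1 (0.0614) or BCPAP Y15 replicate 1 (0.0906), and on the other probe without untreated BCPAP replicate 1 (0.0509). The IGFBP7 difference was lost when any of 8 arrays was left out in turn (adjusted p from 0.0633 to 0.159) and held without either Y15 array of K1, untreated BCPAP replicate 1 or BCPAP Y15 replicate 2. Groups of 2 arrays are too small to single out an array as far from the others.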

How the results depend on the processing

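Of 1050 values of 56 results under the alternatives, 993 kept their direction and their side of the threshold, 36 lost a call, 11 gained one and 10 turned sign without being called. Median centring called 0 member probes in BCPAP (main 4), 0 in K1 (main 2) and 3 for the difference between lines (main 6), and over all probes 242 in K1 (main 1686) and 3865 between untreated TPC1 and K1 (main 6812), and neqc called 3 for the difference between lines, with 2114 (main 3199) and, in K1, 863 over all probes. In K1 the 4 K1 arrays alone called 0 member probes and 0 of all (5 and 3181 at an unadjusted p under 0.05), the methods' threshold 5 and 3230, and array weights 1067 of all. The TPC1 arrays alone called 8386 probes (main 5542). With 1 probe a gene 6562 were called between untreated TPC1 and BCPAP (main 10054) and 5961 between BCPAP and K1 (main 8995), where fewer probes were tested.

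Leaving out each array in turn, where a lone array is assumed to vary like the other groups, called 3 to 5 member probes in TPC1, 4 in BCPAP, 2 in K1, 7 between untreated lines and 4 to 7 for the difference between lines. Over all probes it called 3277 to 7039 in TPC1, 1034 to 4900 in BCPAP, 416 to 4849 in K1 and 1714 to 6001 for the difference. The 7 between untreated lines are probes called in at least 1 of the 3 pairs of lines. With all arrays kept, each pair by itself called 31.5% to 46.5% of all probes. The share of all probes called in at least 1 pair was not computed and cannot be below 46.5%. The log2 changes that turned sign were not called. In BCPAP IGFBP2 ran from -0.17 to 0.070, IGFBP3 on the brighter probe from -0.0045 to 0.24 and IGFBP6 from -0.19 to 0.034, while IGFBP2 ran from -0.12 to 0.12 between untreated TPC1 and BCPAP (-0.061 with neqc) and from -0.096 to 0.15 between BCPAP and K1 (-0.0070 with median centring). Median centring also gave 0.29 for the other IGFBP3 probe and 0.51 for IGFBP6 in BCPAP. It moved the brighter IGFBP3 probe, which kept its sign, to 0.61 in BCPAP without a call. The cause was not tested.

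The labels number the replicates but do not say whether same-numbered arrays were paired. The correlation of the deviations of same-numbered arrays was 0.148 for TPC1, -0.16 for BCPAP and 0.002 for K1. With the replicate block 4, 4 and 2 member probes were called for Y15 and 4 for the difference between lines, where IGFBP5 (0.0595, brighter probe) and IGFBP7 (0.0615) were lost, and with the pairing of BCPAP crossed, chosen after seeing the data, 4 in BCPAP. Signal near background limits IGFBP2, and IGFBP5 outside BCPAP.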
